A study of Mus musculus with 6 samples.

Results

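Tubular injury and repair genes are transcripts that the kidney tubule is known to switch on, or to make more of, when its cells are damaged and regrow. Of 38 such genes, listed by name, 35 were measured here in adult mouse kidney, out of 18193 genes with a probe set of their own. A gene was represented by the probe set (the group of short array probes that reads a transcript) naming that gene alone with the highest mean over all arrays. Spp1 (osteopontin) and Gdf15 were not analysed here because no probe set names them in the annotation used here, and the probe set for S100a11 was left out because it also names other genes. The ICD group held 3 mice, heterozygous for an allele of the soluble intracellular domain (ICD) of megalin, the endocytic receptor of the proximal tubule. The WT group held 3 wild type littermates. All 6 mice were males of 10 weeks, each kidney was read on 1 Affymetrix array, and the promoter that drives the domain was not given in the sources used here. The labels name no injury or drug treatment for either group. A probe set is called dim here where its mean log2 value lay below the median of all probe sets, 6.64, which was so for 7 of the 35 genes (Timp1, Krt20, Cd44, Sox9, Ccl2, Fgb and Fgg) and not for the other 28. No gene was left out for a low value.

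In an injured tubule, epithelial cells lose their brush border, put the phosphatidylserine receptor KIM-1 (Havcr1) on their surface, build new keratin and vimentin filaments, and release chemokines that call in leukocytes. Cells that recover switch on Sox9 and related factors and later return to their resting state, while cells that fail to recover keep adhesion molecules such as VCAM-1 and signal to fibroblasts through TGF-beta and connective tissue growth factor. Several of these genes are also active in healthy collecting duct, urothelium, macrophages or glomerular cells. In whole kidney RNA a change in the number of such cells and a change in RNA per cell cannot be told apart.

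In the comparison of ICD with WT kidneys, 0 of the 35 genes passed the test (limma, adjusted p under 0.05 over all 45037 probe sets), against 0% of all probe sets. The smallest adjusted p among them was 0.269, for Emp1. At unadjusted p under 0.05 in limma there were 3 of 35, namely Emp1, Vim and Tnfrsf12a, where the share over all 18193 genes was 3.94%. The ICD mean was above the WT mean for 11 of 35, and for 43.9% of all genes. The median difference, ICD minus WT, was -0.042 on the log2 scale, beside -0.012 over all genes. The median size of the difference, regardless of sign, was 0.083 for these genes and 0.058 for all genes. The 3 ICD arrays lay above the 3 WT arrays for 1 gene (Emp1), a pattern seen for 3.66% of all genes, and below them for 2 (Tnfrsf12a and Cxcl1), seen for 5.44% of all genes. The counts of genes without overlap lie near the background. With 3 arrays per group, the 95% confidence interval of a gene's difference reached 0.19 to either side at the median gene, and from 0.14 (Krt19) to 0.53 (Fga) over the list.

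**Figure D1:**
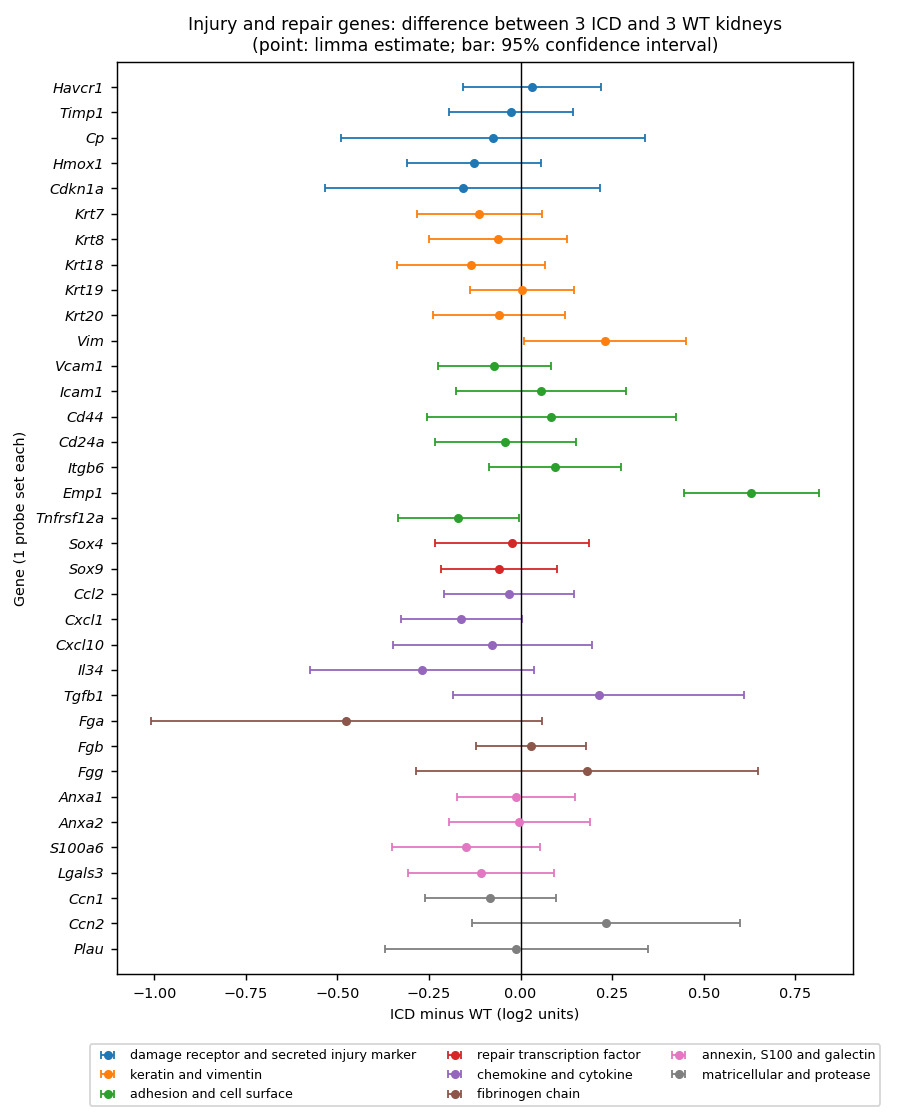
Difference between ICD and WT kidneys (ICD minus WT, log2 units, horizontal axis) for each of the 35 genes (vertical axis), coloured by role, as the limma estimate with its 95% confidence interval from 3 arrays per group. Emp1 stands apart at 0.63, and all other intervals include 0 except those of Vim (0.0094 to 0.45) and Tnfrsf12a (-0.34 to -0.0031).

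Emp1 encodes epithelial membrane protein 1, a small membrane-spanning protein of epithelia. It read 8.72, 8.81 and 8.98 in ICD kidneys, against 8.23, 8.16 and 8.23 in WT kidneys (log2 values of 1416529_at). Every ICD array lay above every WT array. The means were 8.84 ± 0.13 in ICD and 8.21 ± 0.038 in WT kidneys (SD, n = 3 each). The difference was 0.63 ± 0.081 (SE, 95% confidence interval 0.45 to 0.82), a ratio of 1.55 on the linear scale. It had the 5th smallest unadjusted p of the 45037 probe sets (4.2e-05), and in limma its adjusted p of 0.269 did not pass. Leaving out any 1 array gave differences of 0.56 to 0.69. The dimmer probe set 1459171_at read 6.78, 6.79 and 6.85 in ICD and 6.72, 6.58 and 6.95 in WT kidneys. There the groups overlapped, with a difference of 0.055 (interval -0.17 to 0.28). With the mean of both probe sets the difference was 0.34 (limma adjusted p = 0.99). That p was adjusted over 18193 genes and not over all probe sets, and no member had a smaller one there. The unadjusted limma p of Emp1 was still under 0.05 with this choice.

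Vim encodes vimentin, the intermediate filament of mesenchymal cells and podocytes that dedifferentiated tubule cells also build. It read 9.17, 9.27 and 9.36 in ICD kidneys, against 9.07, 9.17 and 8.86 in WT kidneys (1438118_x_at). The ICD array with the lowest value lay just below the WT array with the highest. The difference was 0.23 (interval 0.0094 to 0.45, limma adjusted p = 0.84), and 0.14 without WT 3. The other Vim probe sets pointed the same way. The probe set 1450641_at read 8.97, 9.06 and 9.15 in ICD and 8.996, 8.70 and 8.64 in WT kidneys (difference 0.28, limma adjusted p = 0.8). The probe set 1456292_a_at read 8.33, 8.43 and 8.43 in ICD and 8.04, 8.22 and 7.80 in WT kidneys, without overlap (difference 0.38, limma adjusted p = 0.714). Markers of other cells that hold vimentin were measured beside it. Podocyte markers were higher in ICD kidneys for 8 of 8 (median 0.38, mean level per array 8.17 to 8.26 in ICD and 7.80 to 7.999 in WT). Fibroblast and pericyte markers were higher for 10 of 11 (median 0.043, mean level 8.93 to 9.18 in ICD and 8.68 to 9.21 in WT). Endothelial markers were higher for 10 of 10 (median 0.092, mean level 8.55 to 8.76 in ICD and 8.24 to 8.84 in WT). In the fibroblast and endothelial lists WT 1 had the highest mean level of all arrays and WT 3 the lowest, so the ICD arrays lay between WT arrays. None of these markers passed the limma test over all probe sets, and their part in the Vim values was not tested.

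Tnfrsf12a encodes Fn14, the receptor for the cytokine TWEAK. It read 9.13, 9.12 and 9.27 in ICD kidneys, against 9.36, 9.28 and 9.39 in WT kidneys (1418571_at). The groups did not overlap, but the highest ICD array (9.27) lay close to the lowest WT array (9.28). The difference was -0.17 (interval -0.34 to -0.0031, limma adjusted p = 0.846). The second probe set, 1418572_x_at, read 9.001, 9.06 and 9.17 in ICD and 9.29, 9.16 and 9.25 in WT kidneys, with slight overlap and a difference of -0.16.

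Cxcl1 encodes a chemokine that draws in neutrophils. It read 8.71, 8.56 and 8.70 in ICD kidneys, against 8.83, 8.77 and 8.85 in WT kidneys (1441855_x_at), a difference of -0.16 (interval -0.33 to 0.0028, limma adjusted p = 0.854). All 3 of its probe sets were lower in ICD kidneys on average. Of these 1457644_s_at differed by -0.11 with overlapping groups. The dim 1419209_at read 4.63, 4.46 and 4.71 in ICD and 4.91, 4.98 and 4.88 in WT kidneys, a difference of -0.32 (limma adjusted p = 0.667). Its unadjusted limma p was 0.0038, and it stood for Cxcl1 when probe sets named _s_at or _x_at were left out. With that choice 4 of the 35 genes, Cxcl1 among them, had an unadjusted limma p under 0.05. The 3 probe sets had mean levels of 8.74, 8.58 and 4.76, and which of them gives the level of Cxcl1 was not tested. The receptor of this chemokine, Cxcr2, was dim and differed by 0.11 (limma adjusted p = 0.95).

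**Figure D2:**
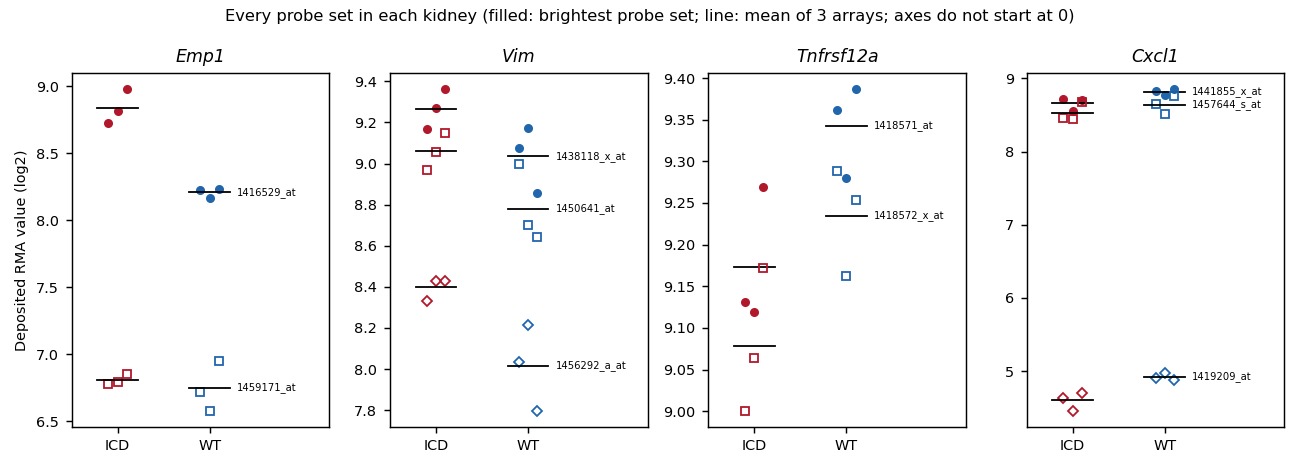
Log2 values (vertical axes, not starting at 0) of every probe set of Emp1, Vim, Tnfrsf12a and Cxcl1 in each ICD (left) and WT (right) kidney, with a line at each group mean and filled symbols for the probe set that represents the gene. The brighter Emp1 probe set separates the groups by 0.63 and the dimmer by 0.055, while the 3 Vim probe sets differ by 0.23 to 0.38 in the same direction.

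Promoter sequences of these 4 genes are shown because 3 of them are the members whose groups did not overlap and Vim is the remaining member with an unadjusted limma p under 0.05. Each run holds 250 bases before the transcription start and 50 bases after it (RefSeq, GRCm38.p6), written 5′ to 3′ on the gene's strand. Capitals mark matches, on either strand, to the AP-1 motif TGANTCA, the NF-kB motif GGANTTTCC, the TEAD motif GGAATG or the TATA box TATAAA, each searched on its own so that matches could share bases. Emp1 has a second annotated start, not shown, whose window held none of these motifs.

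Emp1 (chr6:135362681-135362980, plus strand): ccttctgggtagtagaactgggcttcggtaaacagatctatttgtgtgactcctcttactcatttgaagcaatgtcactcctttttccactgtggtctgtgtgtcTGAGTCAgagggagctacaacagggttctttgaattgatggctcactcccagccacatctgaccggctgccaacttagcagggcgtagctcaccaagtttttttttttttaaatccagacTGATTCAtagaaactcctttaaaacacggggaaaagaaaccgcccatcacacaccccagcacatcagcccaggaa

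Vim (chr2:13574061-13574360, plus strand): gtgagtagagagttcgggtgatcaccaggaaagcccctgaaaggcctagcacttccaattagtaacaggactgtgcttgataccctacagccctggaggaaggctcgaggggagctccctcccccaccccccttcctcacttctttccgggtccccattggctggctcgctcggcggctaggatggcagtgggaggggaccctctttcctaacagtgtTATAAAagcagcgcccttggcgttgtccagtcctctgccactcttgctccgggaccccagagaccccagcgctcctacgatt

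Tnfrsf12a (chr17:23677400-23677699, minus strand): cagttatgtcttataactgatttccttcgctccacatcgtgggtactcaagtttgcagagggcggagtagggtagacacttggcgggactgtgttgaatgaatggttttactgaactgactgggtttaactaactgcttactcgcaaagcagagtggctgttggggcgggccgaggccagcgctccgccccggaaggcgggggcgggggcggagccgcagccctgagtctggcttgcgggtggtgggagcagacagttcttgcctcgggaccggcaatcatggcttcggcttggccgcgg

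Cxcl1 (chr5:90890995-90891294, plus strand): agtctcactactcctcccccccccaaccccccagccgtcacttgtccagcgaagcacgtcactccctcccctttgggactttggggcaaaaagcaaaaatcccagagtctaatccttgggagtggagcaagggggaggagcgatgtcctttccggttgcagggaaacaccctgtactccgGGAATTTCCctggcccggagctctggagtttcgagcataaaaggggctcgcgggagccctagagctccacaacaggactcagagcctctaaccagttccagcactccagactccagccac

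The Emp1 window held 2 AP-1 matches, Cxcl1 held 1 NF-kB match, Vim held 1 TATA box, and Tnfrsf12a held none of the 4. Promoters were found for 26 of the 35 genes (32 windows). AP-1 matches lay in 6 of the 32 windows, beside 7.81% of all 32851 windows. NF-kB matches lay in 4 (Anxa1, Cxcl1, Cxcl10 and Icam1), beside 1.25% of all. TEAD matches lay in 9, beside 14.7%, and TATA boxes in 8, beside 13.6%. These are letter matches and not measured binding.

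Among damage markers, Havcr1 read 6.80, 6.97 and 6.75 in ICD kidneys, against 6.75, 6.78 and 6.90 in WT kidneys. The groups overlapped throughout, with a difference of 0.031 (interval -0.16 to 0.22), and its second probe set, 1434716_at, differed by -0.17. Timp1, an inhibitor of matrix metalloproteinases, lay between 6.31 and 6.47 on all 6 arrays and differed by -0.027. Hmox1, the haem-degrading enzyme induced by oxidative stress, read 7.61, 7.58 and 7.40 in ICD kidneys, against 7.73, 7.65 and 7.59 in WT kidneys. Only 1 ICD array lay above the lowest WT array, and the difference of -0.13 (interval -0.31 to 0.057) did not pass (limma adjusted p = 0.931). In this role 4 of 5 genes had a lower mean in ICD kidneys and 0 passed the test.

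The remaining damage genes, Cp and Cdkn1a, were set apart by a single WT kidney. Cp, the copper-carrying ferroxidase ceruloplasmin, read 9.67, 9.81 and 9.77 in ICD kidneys, against 9.53, 9.63 and 10.31 in WT kidneys. Cdkn1a, the cell cycle inhibitor p21, read 8.38, 8.17 and 8.27 in ICD kidneys, against 8.13, 8.33 and 8.84 in WT kidneys. For both genes the array labelled WT 3 was the highest of all 6. Cp differed by -0.074 and Cdkn1a by -0.16 over the 6 arrays, but without WT 3 the values were 0.17 for Cp and 0.045 for Cdkn1a. The other Cdkn1a probe set (1421679_a_at) was also highest on WT 3, at 7.19 where the other arrays read 6.78 to 6.97. Of the 8 Cp probe sets 5 were highest on WT 3 and 3 were not. Among the 5, 1455393_at read 9.19 on WT 3 and 8.44 to 8.86 elsewhere, and 1417495_x_at read 9.10 on WT 3 and 8.32 to 8.70 elsewhere. Among the 3, 1448735_at read 6.70 on WT 3 and 7.09 on ICD 3, 1417497_at read 6.63 on WT 3 and 6.77 on WT 1, and the dim 1441326_at was lowest on WT 3, at 4.03.

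WT 3 was the array farthest from the median of the other 5 for 10 of the 35 genes (28.6%), beside 19.8% of all genes. ICD 3 was the farthest for 9 (25.7%), beside 13.6% of all genes, and was the highest array for 10 and the lowest for 9. WT 3 was the highest array for 9, among which Krt18 (9.12, others 8.78 to 8.90) and Ccn1 (9.04, others 8.79 to 8.86), and the lowest for 7, among which Vim, Icam1, Cd44 and Tgfb1. The mean level of the 10 proximal tubule markers was 12.95 to 12.97 on the ICD arrays and 12.98, 12.83 and 12.46 on WT 1, 2 and 3. The low mean on WT 3 was not shared by the whole list. Slc6a19, Slc5a2 and Slc22a8 differed there from the median of the other 5 arrays by -1.64, -1.47 and -1.14. Miox and Slc34a1 differed by -0.42 and -0.22. Slc27a2 was highest on WT 3 (14.67). Over all 6 arrays Lrp2 lay at 12.77 to 12.93, Cubn at 12.50 to 12.64, Slc22a6 at 13.06 to 13.17 and Slc13a3 at 12.745 to 12.84. The mean level of the 10 endothelial markers was 8.55 to 8.76 on the ICD arrays and 8.84, 8.52 and 8.24 on WT 1, 2 and 3. The part of these marker differences in the values of the injury genes was not tested.

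**Figure D3:**
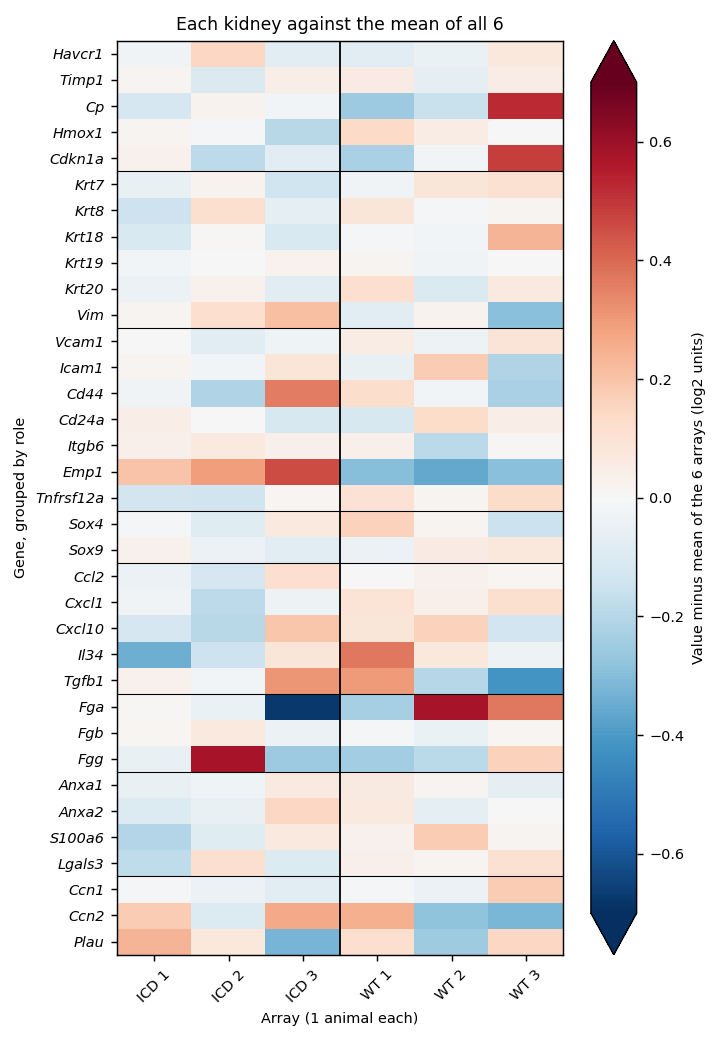
Value of each gene on each array minus its mean over the 6 arrays (colour, log2 units, red above and blue below that mean), with ICD arrays left of the line and WT arrays right of it. Emp1 is red on all 3 ICD arrays and blue on all 3 WT arrays, Cp and Cdkn1a are deep red on WT 3 alone, and Fga and Fgg vary within each group.

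The keratins are the filament proteins of simple epithelia, Krt8 and Krt18 being obligate partners and Krt7, Krt19 and Krt20 marking ducts and urothelium. Krt8 read 11.09, 11.34 and 11.17 in ICD kidneys, against 11.32, 11.22 and 11.25 in WT kidneys, and its 3 probe sets differed by -0.081 to -0.055. Krt18 read 8.78, 8.90 and 8.78 in ICD kidneys, against 8.87, 8.87 and 9.12 in WT kidneys. Its difference was -0.13 with all arrays and -0.050 without WT 3. Krt7 read 10.18, 10.26 and 10.09 in ICD kidneys, against 10.21, 10.32 and 10.34 in WT kidneys, a difference of -0.11 (interval -0.28 to 0.058). Krt19 was the steadiest of the list, between 7.09 and 7.15 on all arrays, with a difference of 0.0051. The dim Krt20 differed by -0.059. All 5 keratins had intervals that include 0. Urothelial markers, measured beside them, were lower in ICD kidneys for 9 of 10 (median -0.084, mean level 7.30 to 7.41 in ICD and 7.43 to 7.51 in WT), and principal cell markers for 8 of 10 (median -0.081, mean level 9.52 to 9.71 in ICD and 9.61 to 9.77 in WT). No marker of either list passed the limma test, and their part in the keratin values was not tested.

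The adhesion and cell surface genes other than Emp1 and Tnfrsf12a had intervals that include 0. Vcam1, the adhesion molecule kept by tubule cells that fail to recover, read 7.47, 7.38 and 7.43 in ICD kidneys, against 7.52, 7.43 and 7.55 in WT kidneys. The groups overlapped and the difference was -0.071 (interval -0.23 to 0.084). Icam1, a ligand of leukocyte integrins, differed by 0.056, and by -0.036 without WT 3. Cd44, the hyaluronan receptor, was dim and read 5.62, 5.44 and 6.01 in ICD kidneys, against 5.77, 5.63 and 5.42 in WT kidneys. Its difference of 0.084 rested on ICD 3 and was -0.075 without it. Cd24a, a surface protein of progenitor-like tubule cells, differed by -0.042. Itgb6 encodes the integrin subunit that activates latent TGF-beta. It read 10.85, 10.89 and 10.85 in ICD kidneys, against 10.85, 10.63 and 10.83 in WT kidneys, a difference of 0.095 that was 0.024 without WT 2.

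The repair transcription factors did not separate the groups. Sox9, the regulator of regenerating tubule cells, read 6.18, 6.11 and 6.07 in ICD kidneys, against 6.11, 6.21 and 6.22 in WT kidneys. Its 3 probe sets differed by -0.059 to -0.022. Sox4, a related factor active in nephron development, read 10.23, 10.16 and 10.31 in ICD kidneys, against 10.41, 10.26 and 10.09 in WT kidneys. Of its 8 probe sets 4 were higher and 4 lower in ICD kidneys, by -0.094 to 0.14.

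Chemokines and cytokines other than Cxcl1 also overlapped between the groups. Ccl2, which draws in monocytes, lay at 5.90 to 6.14 in ICD and 6.03 to 6.06 in WT kidneys and differed by -0.031. Cxcl10, an interferon-induced chemokine for T cells, differed by -0.077 (interval -0.35 to 0.19). Il34, a ligand of the macrophage receptor Csf1r, read 7.05, 7.25 and 7.48 in ICD kidneys, against 7.76, 7.47 and 7.36 in WT kidneys. The lowest values were on ICD 1 and ICD 2, the difference was -0.27 (interval -0.57 to 0.037, limma adjusted p = 0.884), and it was -0.15 without WT 1 and -0.38 without ICD 3. Tgfb1, the main profibrotic cytokine, read 7.72, 7.67 and 7.996 in ICD kidneys, against 7.99, 7.49 and 7.27 in WT kidneys. Its difference of 0.21 was 0.058 without WT 3 and 0.42 without WT 1. Markers of myeloid cells, a further source of these transcripts, were higher in ICD kidneys for 7 of 13 (median 0.0050, mean level 7.09 to 7.39 in ICD and 7.12 to 7.32 in WT).

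The fibrinogen chains assemble into the clotting protein, and injured tubule cells are known to make them along with liver. Whether the 3 transcripts move together cannot be told from these values. Their differences were not of 1 sign, all 3 intervals include 0, and Fgb and Fgg were dim. Fga read 8.90, 8.84 and 8.22 in ICD kidneys, against 8.66, 9.46 and 9.26 in WT kidneys. It had the lowest difference of the list, -0.48 (interval -1.01 to 0.058, limma adjusted p = 0.877), which was -0.71 without WT 1 and -0.26 without ICD 3. Fgg read 6.39, 7.02 and 6.19 in ICD kidneys, against 6.20, 6.25 and 6.605 in WT kidneys. Its difference of 0.18 (interval -0.28 to 0.65) was -0.062 without ICD 2. Fgb lay between 4.89 and 5.01 on all arrays and differed by 0.028 (interval -0.12 to 0.18). Of the hepatocyte genes listed as markers, Alb (albumin) read 7.43, 7.49 and 7.16 in ICD kidneys and 7.39, 7.28 and 7.07 in WT kidneys. The list as a whole was higher in ICD kidneys for 6 of 9 and lower for 3 (median 0.035). Its differences ran from -0.20 (Hpx) to 0.37 (Ttr), and 0 of these genes passed. Their part in the fibrinogen values was not tested.

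Annexins, S100 proteins and galectins bind calcium, membranes or sugars and are abundant in collecting duct and macrophages. All 4 measured genes of this role had lower means in ICD kidneys, where 43.9% of all genes had a higher mean, and 0 passed. S100a6 read 9.14, 9.26 and 9.41 in ICD kidneys, against 9.37, 9.52 and 9.36 in WT kidneys, a difference of -0.15 (interval -0.35 to 0.054). Lgals3, galectin-3, read 10.20, 10.49 and 10.28 in ICD kidneys, against 10.41, 10.39 and 10.48 in WT kidneys, a difference of -0.11. Anxa1, which restrains inflammation, and Anxa2, which holds plasminogen activators at the membrane, differed by -0.013 and -0.0031. Both signs turned when single arrays were left out, and the other 2 Anxa2 probe sets were higher in ICD kidneys, by 0.056 and 0.064.

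Of the matrix genes, Ccn1 (the older Cyr61), a matricellular target of YAP, read 8.86, 8.82 and 8.79 in ICD kidneys, against 8.85, 8.82 and 9.04 in WT kidneys. Its difference was -0.083, and -0.014 without WT 3. Ccn2, connective tissue growth factor, read 10.50, 10.23 and 10.59 in ICD kidneys, against 10.57, 10.04 and 10.00 in WT kidneys. It was high on WT 1 as well as on ICD 1 and ICD 3, so that its difference of 0.23 (interval -0.13 to 0.60) was 0.13 without WT 3 and 0.42 without WT 1. Plau, the urokinase-type plasminogen activator, lay between 6.91 and 7.48 and differed by -0.012.

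**Figure D4:**
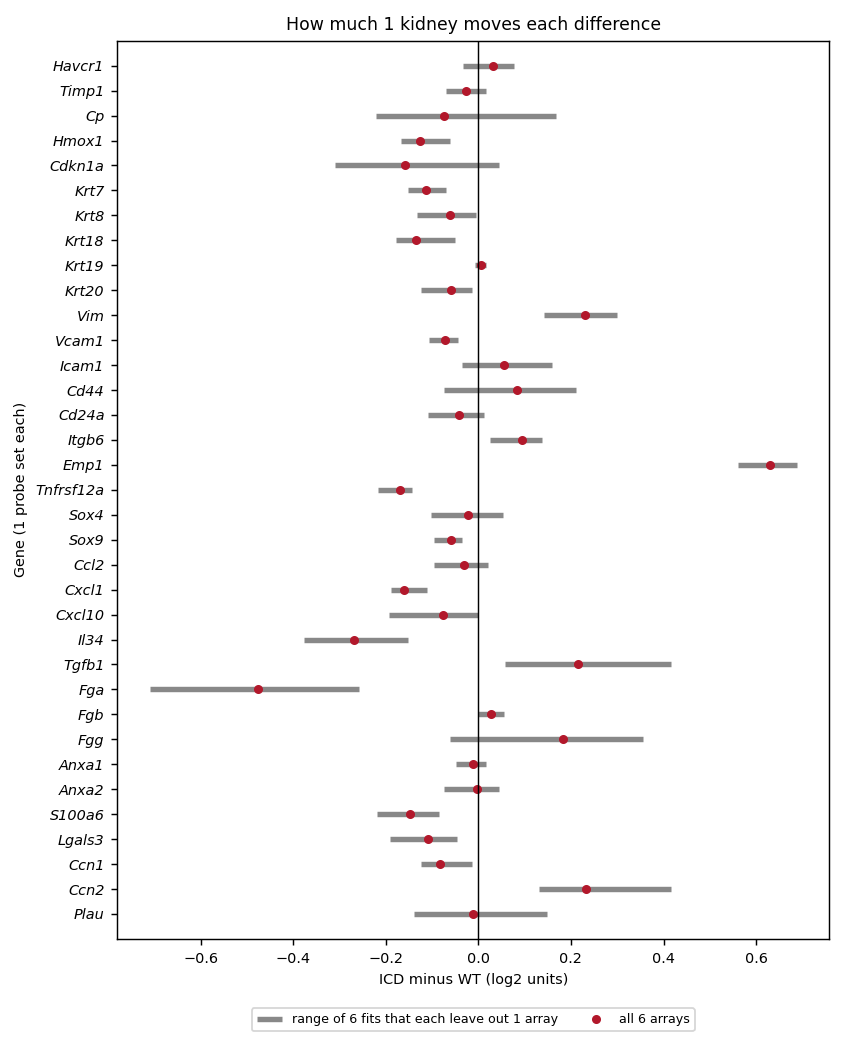
Difference between ICD and WT kidneys (ICD minus WT, log2 units) for each gene with all 6 arrays (red points) and the range over the 6 fits that each leave out 1 array (grey bars). The bar of Emp1 runs from 0.56 to 0.69, whereas those of Cp, Cdkn1a, Fgg and Plau cross 0.

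Leaving out 1 array at a time turned the sign of 15 of the 35 differences at least once and of 20 never. The 15 were Havcr1, Timp1, Cp, Cdkn1a, Krt19, Icam1, Cd44, Cd24a, Sox4, Ccl2, Fgb, Fgg, Anxa1, Anxa2 and Plau. Of the 19 genes with several probe sets, 12 had all probe sets on 1 side, 4 of them higher (Emp1, Itgb6, Tgfb1 and Vim) and 8 lower in ICD kidneys.

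Genes that work with the members, or that respond to the same pathways, were listed as well. Of the receptors and partners, 0 of 18 passed the test in either direction. Itgal, a subunit of the leukocyte integrin that binds ICAM-1, was dim. It read 5.95, 5.88 and 6.04 in ICD kidneys, against 6.19, 6.10 and 6.15 in WT kidneys (difference -0.19, limma adjusted p = 0.8). Plat, the tissue plasminogen activator, read 9.28, 9.45 and 9.45 in ICD kidneys, against 9.22, 9.24 and 8.89 in WT kidneys (difference 0.27, limma adjusted p = 0.816, and 0.16 without WT 3). Neither gene's groups overlapped, a pattern seen for 3.66% of all genes with ICD higher and 5.44% with ICD lower, and neither passed.

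Of the other injury and failed repair genes, 0 of 33 passed, with 18 higher and 15 lower in ICD kidneys (median 0.023). Cldn1, a claudin of parietal epithelium and injured tubules, had the smallest p of that list and read 7.74, 7.88 and 7.71 in ICD kidneys, against 7.37, 7.48 and 7.63 in WT kidneys (difference 0.28, limma adjusted p = 0.72). Sprr2f, a small proline-rich protein of stressed epithelia, was dim and differed by -0.23. B2m, the MHC class I light chain, differed by 0.27 (0.40 without WT 3). Of the 33, 1 (Cldn1) lay higher in ICD kidneys without overlap and 1 (Sprr2f) lower, beside 3.66% and 5.44% of all genes. These counts do not exceed the background.

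The p53 response genes, to which Cdkn1a belongs, had 0 of 10 passing (median -0.0075). Trp53inp1, a p53-induced stress protein, differed by 0.21 and Zmat3 by 0.13, both without overlap between the groups, and Aen by -0.15. In this list 2 of 10 lay higher without overlap and 1 lower, beside 3.66% and 5.44% of all genes. The NRF2 response genes, which like Hmox1 answer oxidative stress, had 0 of 11 passing (median -0.020). Of them 9 were lower and 2 higher in ICD kidneys, where 43.9% of all genes were higher. Among the 9, Fth1 differed by -0.0006 and Nqo1 by -0.0015. Gclc, an enzyme of glutathione synthesis, differed by -0.30 and was lowest on ICD 3 (12.59, others 12.98 to 13.39). Srxn1 differed by -0.10 and the dim Slc7a11 by -0.11. The YAP and TEAD genes, beside which Ccn1 and Ccn2 stand, had 0 of 12 passing (median 0.017). The kinase gene Nuak2 differed by -0.29, the transcription factor gene Tead1 by -0.17 and the kinase gene Lats2 by 0.18. The groups did not overlap for Tead1 and Lats2, and 2 of the 12 lay higher and 1 lower in this way.

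Genes known to be lost from injured tubules had 0 of 17 passing, with 12 higher and 5 lower in ICD kidneys (median 0.069). The amino acid transporter Slc6a19 read 11.15, 11.09 and 11.07 in ICD kidneys, against 10.82, 10.63 and 9.43 in WT kidneys, the lowest value being that of WT 3 (difference 0.81, limma adjusted p = 0.809). Slc5a2, the glucose transporter SGLT2, differed by 0.61 and Miox, an inositol-degrading enzyme of the proximal tubule, by 0.19, and both also had their lowest value on WT 3. Without WT 3 the differences were 0.38 for Slc6a19, 0.20 for Slc5a2 and 0.077 for Miox. Of the tubule transcription factors 0 of 7 passed, and Sox5, the dim Sox11 and Sox6 differed by 0.11, 0.064 and 0.021 (0.18, 0.049 and -0.0072 without WT 3).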

How the data were processed

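Total kidney RNA was biotin-labelled and hybridised to Affymetrix arrays, per the labels' protocols. The deposited values are log2 numbers, and the submitters' processing notes name RMA, which corrects background, brings arrays to 1 distribution and summarises probe sets, and which compresses differences of dim probe sets. Neither its version nor the chip definition is given in the sources used here. The table held 45101 rows, of which 64 control rows were left out. Symbols came from the platform annotation (34945 of 45037 probe sets with 1 symbol, 932 with several, 9160 with none), brought up to date by Entrez ID with RefSeq's gene table for GRCm38.p6 (34741 found). Array medians lay between 6.62 and 6.66, array pairs correlated at 0.9949 to 0.9966, and no arrays were identical. Arrays give no read depth, so their number limits the precision.

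ICD and WT were compared in limma 3.58.1 (R 4.3.3, lmFit and eBayes, genotype only, 2-sided, Benjamini-Hochberg over all probe sets). The fit was checked on simulated data. The changes put into those data were larger than any difference reported here, so the check does not show the power at the sizes reported. An exact permutation test of 3 against 3 arrays cannot go below 0.1 and was not used. The genes named are all members, and of each further list of partner or pathway genes the 3 with the smallest unadjusted p. Markers were given beside members only. Alternatives were a replicate block, leaving out each array, another prior, array weights, renormalization, median centring, bright probe sets alone and other ways to choose a probe set. The members and all lists were chosen with earlier results of these data known.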

Additional observations from a re-analysis of the deposited data

How the results depend on the processing

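None of the 35 genes, and none of the listed pathway genes, passed limma's threshold with all arrays or under any of the 14 alternatives run. For Emp1 the limma adjusted p ranged from 0.121 (trended and robust prior) to 0.99 (mean of its probe sets, adjusted over 18193 genes). Over all probe sets 0 passed with all arrays, although 2641 of 45037 had an unadjusted limma p under 0.05. With the trended and robust prior 1 passed, and without single arrays 0 to 1. The number of genes whose groups did not overlap was 3 with all arrays and 5 to 10 without single arrays, where fewer arrays were left to overlap (9.1% of all genes with all arrays, 16.9 to 21.5% without single arrays). The median difference of -0.042 was -0.062 to -0.033 without single arrays, and -0.066 among the 28 genes with bright probe sets. The number of genes higher in ICD kidneys stayed within 1.5 times the main count of 11 in every alternative. Quantile normalization and median centring each turned the sign of 1 gene, Krt19, and array weights that of Plau. Averaging every probe set that names a gene turned the sign of 5, to -0.068 for Havcr1, -0.017 for Cd44, 0.022 for Sox4, 0.039 for Anxa2 and 0.021 for Ccn1.

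The replicate numbers are not shown to pair the animals. Deviations of same-numbered arrays from their group means correlated at -0.0057, 0.0077 and -0.047, and no ICD array correlated best with its own number. With the replicate block 0 probe sets passed, and 1 of the 35 genes (Emp1, limma adjusted p = 0.644) had an unadjusted p under 0.05. With 3 arrays per group the 95% interval of a single gene reached 0.19 to either side at the median gene. The limit of detection after adjustment over all probe sets is wider than that, since Emp1 at 0.63 did not pass.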
